A study of Homo sapiens with 8 samples.

Results

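MHC class I molecules show peptides from the inside of a cell to CD8 T cells and, when they are lost, release natural killer cells from inhibition. Proteasomes cut cytosolic proteins, and the interferon-induced subunits PSMB8 and PSMB9 replace constitutive ones to form immunoproteasomes. The TAP1 and TAP2 transporter then moves the peptides into the endoplasmic reticulum. There TAPBP (tapasin) holds a heavy chain paired with beta-2-microglobulin (B2M) until a peptide fits. NLRC5 is a transactivator of class I genes, and tumours often lower the genes of this pathway as a group.

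The 10 genes HLA-B, HLA-E, HLA-F, B2M, TAP1, TAP2, TAPBP, PSMB8, PSMB9 and NLRC5 were chosen by name, and each was read through the transcript cluster (the group of probes that reports 1 gene) annotated to its symbol. The annotation used here gave 9 of the 10, with 1 cluster each, among 17709 annotated clusters, and HLA-B was not analysed here. They were compared in xenograft tumours of SK-OV-3, a human ovarian cancer cell line, grown in nude mice, which lack a thymus and so most T cells but keep other host immune cells. In 4 tumours the cells carried the pIND_BORA vector, which overexpresses BORA, a cofactor of PLK1 activation before mitosis. The other 4 came from the same line with the empty vector (EV), in the same host. Each tumour gave 1 array of total RNA, and the labels do not say whether the lines were pools or single clones, or whether the replicates came from separate animals. The p-values therefore measure the spread between these arrays, which may be partly technical.

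Values are deposited signals taken as log2, and a difference is BORA minus EV. BORA itself checked the labels: it averaged 12.76 ± 0.23 in BORA tumours and 6.63 ± 0.57 in EV tumours (SD, n = 4 each; exact two-sided permutation p = 0.0286, the smallest that 70 splits allow). EV replicate 1 stood apart, with correlations of 0.943 to 0.954 with the other arrays, against 0.981 to 0.992 among those 7. Its summed signal of 7 squamous keratinocyte markers was 16.97, against 6.98 to 7.21 in BORA tumours and 7.18 to 8.19 in EV replicates 2 to 4. Each result is therefore given with and without it. The share of control pairs in which a positive control exceeded a negative one was 0.972 to 0.976 in BORA arrays and 0.964 to 0.972 in EV arrays. Its part in the differences below was not tested, and the number of arrays limits their precision.

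Class I genes are classic targets of interferon, and the interferon-stimulated response element (ISRE) is where IRF proteins and the ISGF3 complex bind. RefSeq promoter windows on GRCh38.p14, each 250 bases before to 50 after a gene start, were found for 8 of the 10 genes, in 10 windows. Searched on both strands for the core of this element, GAAA and GAAA with any 2 bases between, 6 of the 8 genes held a match, against 3.57% of all 35116 windows and 4.38% of 27305 genes. The 9 matches overlapped no match to the 2 other motifs searched. The 50 bases around each match are shown because they are the feature most of these promoters share, with the match in capitals, read 5′ to 3′ on the gene's strand, where a TTTC pair is the same core on the opposite strand.
B2M, chr15:44711356-44711405, + strand: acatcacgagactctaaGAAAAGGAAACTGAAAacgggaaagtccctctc
TAP1, chr6:32853806-32853855, - strand: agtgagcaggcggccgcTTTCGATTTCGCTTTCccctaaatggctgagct
TAPBP, chr6:33314066-33314115, - strand: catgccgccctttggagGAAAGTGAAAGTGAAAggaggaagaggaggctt
PSMB8, chr6:32844022-32844071, - strand: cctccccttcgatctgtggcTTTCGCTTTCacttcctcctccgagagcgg
TAP2, chr6:32838768-32838817, - strand: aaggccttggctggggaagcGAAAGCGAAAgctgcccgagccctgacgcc
HLA-F, chr6:29723258-29723307, + strand: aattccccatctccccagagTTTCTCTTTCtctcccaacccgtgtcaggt

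In B2M, TAP1 and TAPBP the capitals hold 2 overlapping cores, and in PSMB8, TAP2 and HLA-F 1 core. The first core began 144 bases before the start of B2M, 134 before TAP1, 20 before TAPBP, 4 before PSMB8, 58 before TAP2 and 156 before HLA-F. PSMB8 and TAP1 each have a second annotated start whose window held no match. The PSMB9 and HLA-B windows held none either, nor did those of the heavy chains HLA-C and HLA-G. Only this exact core was searched, so a window without a match may still hold a variant of it. TAP1 and PSMB9 lie head to head with starts 488 bases apart, so the TAP1 cores lie between both genes, outside the PSMB9 window. Of the other motifs, the NF-kB consensus was in the windows of 4 of the 8 genes (7.09% of all genes and 5.91% of windows) and CCAAT in 5 (39.7% and 34.6%). A match of letters is a description and shows no binding.

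All 9 measured genes had a higher mean in BORA tumours, by a median of 0.71 over 8 arrays and 0.73 over 7. The median of all annotated clusters was -0.03 in both sets. Among the 7594 clusters above the 95th percentile of the negative controls it was 0.12 and 0.09, with 65.3% and 62.8% of them higher in BORA. None of the 9 passed limma's test at an adjusted p of 0.05, over 8 arrays or 7. Clusters that passed upward made up 0.102% of all tested over 8 arrays and 0.435% over 7. In 6 of the 9, HLA-E, B2M, TAP1, TAPBP, PSMB8 and PSMB9, all BORA arrays lay above all EV arrays, with EV replicate 1 or without it. This held for 4.45% of all annotated clusters over 8 arrays and 6.66% over 7, and for 7.53% and 10.7% of those above the negative controls. At limma's unadjusted p of 0.05, 7 of the 9 were below it in each set, all but TAP2 and NLRC5. Of all 17709 clusters, 1305 were below it and higher in BORA over 8 arrays, and 1363 over 7. Of the 7594 above the negative controls, 931 were so over 8 arrays and 960 over 7.

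**Figure D1:**
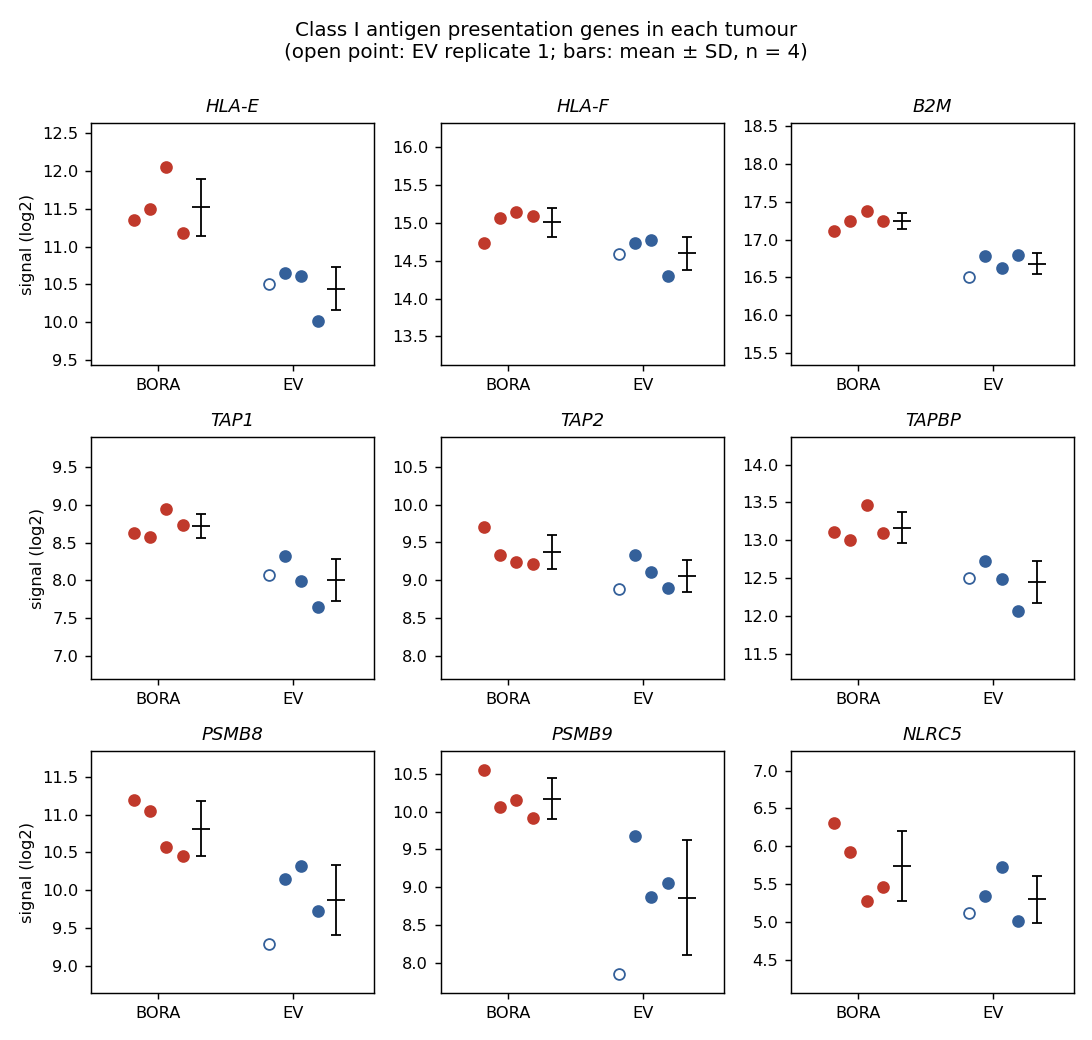
Log2 signal of the 9 measured class I genes in each tumour, with BORA tumours (red) to the left of EV tumours (blue, EV replicate 1 open) and bars for mean ± SD of 4 arrays; every panel spans the same number of log2 units. In 6 panels the red and blue points do not overlap, while in HLA-F, TAP2 and NLRC5 they do.

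The first group holds the molecules that carry the peptide. HLA-E (TC0600007530.hg.1), a class I molecule with little variation that binds leader peptides of other class I chains and is read by the NKG2A receptor of natural killer cells, had signals of 11.35, 11.50, 12.05 and 11.18 in BORA tumours and 10.51, 10.64, 10.61 and 10.02 in EV tumours. The lowest BORA tumour lay 0.54 above the highest EV tumour. The difference was 1.07 (SE 0.22), or 2.10-fold, with limma's adjusted p = 0.129. Without EV replicate 1 it was 1.09 (SE 0.24, adjusted p = 0.0773), so that array hardly moved the estimate. HLA-E had the lowest adjusted p of the 9 in both sets.

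B2M (TC1500007097.hg.1), the invariant light chain without which class I molecules do not reach the surface, had 17.12, 17.25, 17.37 and 17.25 in BORA tumours and 16.51, 16.78, 16.63 and 16.80 in EV tumours. The groups did not overlap, and both were tight, with means of 17.25 ± 0.10 in BORA and 16.68 ± 0.14 in EV. The difference was 0.57 (SE 0.14), or 1.48-fold, with adjusted p = 0.161 over 8 arrays, and 0.51 (SE 0.15, adjusted p = 0.164) over 7. HLA-F (TC0600007480.hg.1), another class I molecule with little variation, had 14.73, 15.06, 15.15 and 15.09 in BORA tumours and 14.59, 14.73, 14.77 and 14.30 in EV tumours. BORA replicate 1 fell among the EV tumours and the other 3 lay above them. The difference of 0.41 had an adjusted p of 0.309 over 8 arrays and 0.325 over 7.

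Other heavy chains were read for comparison, of which HLA-C and HLA-G were measured. HLA-C, a classical heavy chain that is a ligand of killer-cell receptors, had 12.68, 12.88, 13.38 and 12.18 in BORA tumours and 11.54, 11.66, 11.81 and 10.94 in EV tumours. HLA-G, known from the placenta, had 12.53, 12.58, 13.14 and 12.55 in BORA and 11.70, 12.12, 12.17 and 12.11 in EV. Neither overlapped. The HLA-C difference was 1.29 (adjusted p = 0.135, and 0.0801 without EV replicate 1), and that of HLA-G 0.68 (adjusted p = 0.196, and 0.194). Class I heavy chains are near-identical over long stretches, so the probes of one locus may read RNA of another, and the HLA values are uncertain as readings of single genes.

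The second group moves and loads peptides. TAP1 (TC0600011508.hg.1), one chain of the transporter, had 8.63, 8.57, 8.94 and 8.73 in BORA tumours and 8.08, 8.32, 7.99 and 7.65 in EV tumours. All 4 BORA arrays but only 2 of the 4 EV arrays exceeded the 95th percentile of their own negative controls. The groups did not overlap, and the difference was 0.71 (SE 0.17), or 1.64-fold, with adjusted p = 0.165 over 8 arrays and 0.120 over 7. TAP2 (TC0600014275.hg.1), the partner chain, had 9.71, 9.33, 9.24 and 9.21 in BORA tumours and 8.88, 9.34, 9.11 and 8.89 in EV tumours. Only BORA replicate 1 stood above EV replicate 2. Its difference of 0.32 (SE 0.17) was the smallest of the 9, with adjusted p = 0.426 over 8 arrays and 0.547 over 7.

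TAPBP (TC0600011536.hg.1), the tapasin bridge between TAP and the empty heavy chain, had 13.11, 13.00, 13.46 and 13.10 in BORA tumours and 12.51, 12.73, 12.49 and 12.07 in EV tumours. The groups did not overlap. The difference was 0.72 (SE 0.18), or 1.65-fold, with adjusted p = 0.173 over 8 arrays and 0.123 over 7. Beyond these genes, 10 of 10 listed loading, trimming and quality control factors of the endoplasmic reticulum were measured. None passed the test in either direction, 9 were higher in BORA over 8 arrays and 8 over 7, and their median was 0.23 and 0.17. UGGT1, which returns misfolded glycoproteins to the folding cycle, was 11.35 ± 0.16 in BORA and 10.91 ± 0.21 in EV without overlap (adjusted p = 0.278). The peptide-trimming enzyme ERAP2 differed by 0.50 (adjusted p = 0.309), and the chaperone CALR by 0.31 (adjusted p = 0.409), both with overlap. TAPBPL, a tapasin relative, and PRKCSH, a glucosidase subunit, differed by 0.28 and 0.27, with overlap too.

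The third group cuts the peptides. PSMB8 (TC0600011507.hg.1), which replaces PSMB5 in the immunoproteasome, had 11.19, 11.05, 10.57 and 10.45 in BORA tumours and 9.29, 10.15, 10.32 and 9.72 in EV tumours. The groups were only 0.13 apart at their nearest arrays. The difference was 0.94 (SE 0.26), or 1.92-fold, with adjusted p = 0.195, and without EV replicate 1, the lowest, it was 0.75 (SE 0.23, adjusted p = 0.164). PSMB9 (TC0600014110.hg.1), which replaces PSMB6, had 10.55, 10.06, 10.15 and 9.91 in BORA tumours and 7.85, 9.67, 8.87 and 9.05 in EV tumours. EV replicate 1 was again the lowest, and it was the 1 EV array below its negative control percentile. The difference was 1.31 (SE 0.34), or 2.47-fold, over 8 arrays (adjusted p = 0.183) and 0.97 (SE 0.23), or 1.96-fold, over 7 (adjusted p = 0.0940). Its SD in EV tumours was 0.76 with that array and 0.42 without it.

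**Figure D2:**
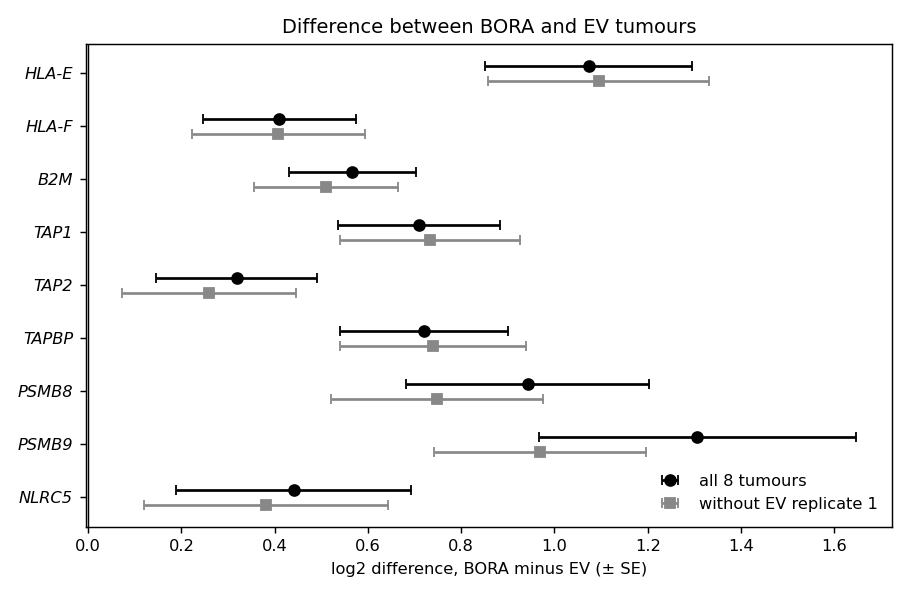
Log2 difference, BORA minus EV, of each measured class I gene with its standard error, over all 8 tumours (black circles) and without EV replicate 1 (grey squares). Every point lies to the right of 0, HLA-E at 1.07 and 1.09, and PSMB9 drops to 0.97 when that tumour is left out, against 1.31 with it.

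The immunoproteasome genes were set beside the constitutive catalytic subunits they replace by taking the difference of log2 signals within each array, in 3 pairs chosen after the values were seen and given without a test. The zero point of such a difference depends on the probes, so only its change between tumours can be read. PSMB8 minus PSMB5 was 1.03, 1.02, 1.05 and 0.98 in BORA tumours and 0.27, 0.73, 0.54 and 0.46 in EV tumours. Every BORA tumour lay above every EV tumour, and the BORA values were almost the same, 1.02 ± 0.03 against 0.50 ± 0.19 in EV (SD, n = 4 each), although both genes varied among BORA tumours. PSMB9 minus PSMB6 was 0.83, 0.48, 0.83 and 0.45 in BORA and -0.94, 0.44, -0.39 and -0.43 in EV. Here EV replicate 2 lay just below the lowest BORA tumour. The group means differed by 0.52 in the first pair and 0.98 in the second, and by 0.44 and 0.77 without EV replicate 1.

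PSMB10, the third interferon-induced subunit, was 7.22 ± 0.17 in BORA tumours and 6.33 ± 0.49 in EV tumours, below the negative control percentile on all 8 arrays. Its groups did not overlap, with a difference of 0.89 (adjusted p = 0.188) over 8 arrays and 0.67 (adjusted p = 0.130) over 7. In PSMB10 minus PSMB7 the groups overlapped, and the means differed by 0.67 and, without EV replicate 1, by 0.59. POMP, the assembly factor that helps build immunoproteasomes, was higher without overlap, by 0.47 (adjusted p = 0.263), while PSME1, a part of the interferon-induced activator, differed by 0.39 over 8 arrays and 0.12 over 7. The other activator genes PSME3 and PSME4 differed by -0.19 and 0.10. The 14 constitutive subunits of the 20S core, all measured and all above the negative controls, included none that passed the test and none without overlap. Their median difference was 0.23 over 8 arrays and 0.07 over 7. PSMB5, PSMB6, PSMB1 and PSMB4 had the smallest p over 8 arrays. They differed by 0.33 to 0.49, with limma's unadjusted p of 0.088 to 0.099.

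**Figure D3:**
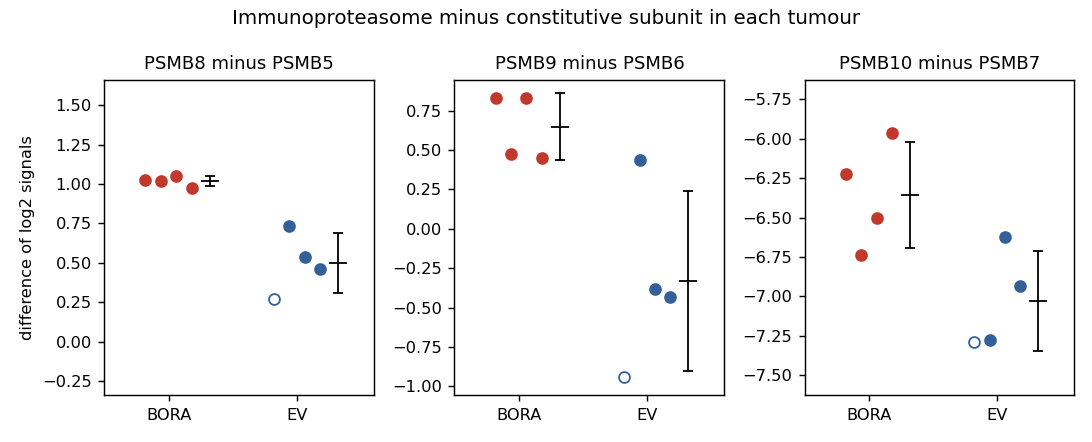
Difference of log2 signals within each array between an immunoproteasome subunit and the constitutive subunit it replaces, with BORA tumours (red) left of EV tumours (blue, EV replicate 1 open) and bars for mean ± SD of 4 arrays. The 4 BORA tumours lie between 0.98 and 1.05 for PSMB8 minus PSMB5, above all EV tumours, while the groups overlap for PSMB10 minus PSMB7.

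NLRC5 (TC1600007986.hg.1), the transactivator, was near background: its signals were 6.30, 5.93, 5.27 and 5.46 in BORA tumours and 5.12, 5.34, 5.72 and 5.02 in EV tumours. None of the 8 exceeded the negative control percentile of its array. The groups overlapped, and the difference of 0.44 (adjusted p = 0.448 over 8 arrays, 0.527 over 7) cannot be told from background variation at this signal. Of the 14 other listed factors known to act at class I promoters, 12 were measured. IRF9, the DNA-binding subunit of ISGF3, rose, with 9.84, 9.62, 9.31 and 9.41 in BORA tumours and 8.47, 8.57, 8.36 and 8.34 in EV tumours. The difference was 1.11 (SE 0.16), with limma's adjusted p = 0.0449 over 8 arrays and 0.0250 over 7. The call over 8 arrays was lost under quantile normalization (adjusted p = 0.0611), median centring (0.0551), an intensity trend with robust fitting (0.0574) and a filter at the median cluster (0.0550), and with any 1 of the other 7 arrays left out (adjusted p of 0.0923 to 0.141). Over 7 arrays it was lost without BORA replicate 2 (0.0806), BORA replicate 4 (0.0602) or EV replicate 3 (0.0658).

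The other 11 factors did not pass. IRF1, which binds the ISRE of class I genes, had 8.19, 8.92, 8.61 and 7.74 in BORA tumours and 6.89, 7.43, 7.09 and 6.51 in EV tumours, without overlap. It exceeded the negative control percentile on 3 BORA arrays and 0 EV arrays, so its EV values are readings near background. RELA, the NF-kB subunit, had 10.46, 11.01, 11.52 and 10.96 in BORA tumours and 9.85, 10.01, 10.12 and 9.71 in EV tumours, again without overlap. The IRF1 difference was 1.39 (adjusted p = 0.129, and 0.0759 without EV replicate 1), and that of RELA 1.07 (adjusted p = 0.129, and 0.0864). IRF2, which shares the IRF1 site, was 9.97 ± 0.21 in BORA and 9.45 ± 0.30 in EV without overlap, a difference of 0.52 (adjusted p = 0.277). IRF1 and RELA had their lowest values in EV replicate 4, which was also the lowest for HLA-E, HLA-F, TAP1 and TAPBP. The median of the 12 factors was 0.34 over 8 arrays and 0.29 over 7.

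Interferons and their receptors lie upstream of this control. Of 15 measured interferons, receptors and signalling genes none passed in either direction, and their median was -0.13 over 8 arrays and -0.07 over 7. IFNB1, the interferon beta gene, had 4.09 ± 0.22 in BORA and 4.51 ± 0.27 in EV, below background on all arrays, so no interferon transcript change was detectable for it. TYK2, a kinase of the type I receptor, was 10.44 ± 0.09 in BORA and 9.99 ± 0.28 in EV, without overlap (adjusted p = 0.280). SOCS3, a feedback inhibitor with the smallest p of the list, was 5.47 ± 0.20 in BORA and 4.92 ± 0.22 in EV, again without overlap (adjusted p = 0.222) but below background on all arrays. The receptor genes IFNAR2 and IFNLR1 differed by 0.32 and -0.51, both with overlap. Of 14 interferon-gamma-induced genes none passed, with a median of 0.09 over 8 arrays and 0.10 over 7. Among them GBP3, a guanylate-binding protein, had 9.42, 9.59, 9.92 and 9.14 in BORA tumours and 7.97, 9.01, 8.59 and 8.76 in EV tumours. It was the 1 gene of that list higher without overlap, by 0.94 (adjusted p = 0.184), while GBP5 differed by 1.19 with overlap (adjusted p = 0.388). GBP1 differed by 0.92 (adjusted p = 0.306) and CIITA, the class II transactivator, by -0.25, both below background.

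**Figure D4:**
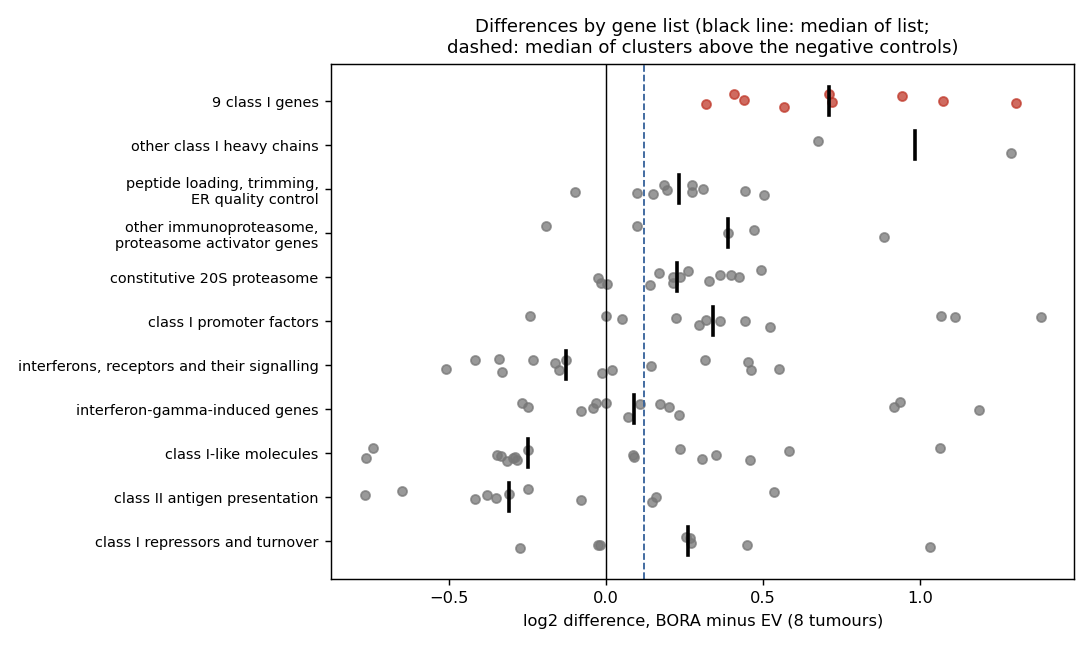
Log2 difference, BORA minus EV over 8 tumours, of every measured gene in 11 lists, with the median of each list as a black line and the median of clusters above the negative controls as a dashed line at 0.12. The 9 class I genes in the top row lie between 0.32 and 1.31, while class II genes have a median of -0.31.

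Class II genes present peptides from outside the cell in immune cells. Of the 12 listed, 11 were measured, none lay above the negative controls and none passed. Their median was -0.31 over 8 arrays and -0.29 over 7. Clusters below the negative controls as a whole had a median of -0.11 in both sets, with 67.4% and 66.4% of them lower in BORA, so these differences are readings of dim signal. Those with the smallest p were HLA-DQA1, HLA-DPA1, HLA-DQB1, HLA-DPB1 and HLA-DRA, lower by 0.35 to 0.77 over 8 arrays, and HLA-DMA, higher by 0.54. Of 17 class I-like molecules none passed over 8 arrays, with a median of -0.25, and the median was 0.00 over 7. The smallest p over 8 arrays was that of CD1C, a lipid-presenting molecule, which had 4.06 ± 0.21 in BORA tumours and 4.83 ± 0.29 in EV tumours (-0.77, adjusted p = 0.161), below the negative controls on all arrays. CD1A and CD1E differed by -0.33 and -0.31, also below them, and PROCR, the protein C receptor, by 0.58. ULBP2, a ligand of the activating receptor NKG2D, had 10.46, 10.83, 9.91 and 10.10 in BORA tumours and 11.14, 8.79, 8.90 and 8.20 in EV tumours, where EV replicate 1 was the highest of all 8. Over 8 arrays ULBP2 differed by 1.06 (adjusted p = 0.408), and without that array it rose by 1.69 (SE 0.25, adjusted p = 0.0173). That call was lost when BORA replicate 2 was left out as well (1.52, adjusted p = 0.0544). RAET1L, of the same ligand family, had its highest signal in EV replicate 1 too, and differed by 0.09 over 8 arrays and 0.85 over 7 (adjusted p = 0.121). RAET1G, of that family too, differed by 0.30 and 0.90 (adjusted p = 0.0699 over 7), below the negative controls.

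Genes known to hold class I down or to turn its proteins over were measured for 8 of 9, and none passed. The median was 0.26 over 8 arrays and 0.23 over 7. SUSD6 and TMEM127, which act together in class I degradation, differed by 0.45 (adjusted p = 0.424) and 0.25 (adjusted p = 0.513), both with overlap. UBE2L6, the conjugating enzyme of the interferon-induced modifier ISG15, was 11.13 ± 0.33 in BORA tumours and 10.09 ± 0.51 in EV tumours without overlap, a difference of 1.03 (adjusted p = 0.180). SUZ12, a Polycomb subunit, and NBR1, an autophagy receptor, differed by -0.03 and -0.27, with overlap.

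The 9 genes did not rank the tumours alike. BORA replicate 3 was the highest of all 8 for HLA-E, HLA-F, B2M, TAP1 and TAPBP, and BORA replicate 1 for TAP2, PSMB8, PSMB9 and NLRC5. At the low end, EV replicate 4 was lowest for HLA-E, HLA-F, TAP1, TAPBP and NLRC5, and EV replicate 1 for B2M, TAP2, PSMB8 and PSMB9. EV replicate 4 did not show the squamous markers of replicate 1 (summed signal 7.18). The mean of the 9 genes, each scaled to a mean of 0 and an SD of 1, was 0.91, 0.73, 0.83 and 0.46 in BORA tumours and -1.10, -0.19, -0.44 and -1.21 in EV tumours. By this measure EV replicates 1 and 4 were lowest, and EV replicate 2 was nearest to the BORA tumours.

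Of 7583 other genes above the negative controls in the mean of either group, 5 were most like this mean across the 8 arrays. They were PARP9 (Pearson r = 0.982), GLIPR1 (0.974), CAVIN3 (0.974), GLIS3 (0.971) and FAM89B (0.970). These r values are descriptions. All 5 genes separate the groups too, so r reads the difference between groups as well as the order within them. Their differences were 0.99 for PARP9, an interferon-induced member of the PARP family, 2.13 for GLIPR1, 1.41 for CAVIN3, 1.04 for GLIS3 and 0.58 for FAM89B. The choice by likeness favours such differences, so they are given without a test. GLIPR1 and CAVIN3 exceeded the negative control percentile on 0 EV arrays and entered through their BORA means. Their EV values are readings near background.

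Markers of other cells were summed per tumour, since immune and stromal cells also express class I genes. In these xenografts such cells come from the mouse host, and human probes read them only where the sequences allow. The sums of their markers are therefore no measure of how many such cells a tumour held. In bulk RNA fewer cells of a type and less RNA per cell cannot be told apart either. The 10 leukocyte markers, 3 of them above the negative controls, summed to 11.72 to 12.34 in BORA tumours and 11.14 to 13.27 in EV tumours, and to 12.74 to 13.27 in EV replicates 2 to 4. PTPRC, the pan-leukocyte gene, had 10.83, 9.68, 10.96 and 10.09 in BORA tumours and 6.91, 12.19, 12.24 and 12.94 in EV tumours. It was the brightest of the 10 markers in EV replicates 2 to 4. In BORA replicates 2 to 4 and EV replicate 1 the marker CD68 was brighter, so the sum did not follow PTPRC alone. PTPRC differed by -0.68 over 8 arrays (adjusted p = 0.803) and fell by 2.07 over 7 (adjusted p = 0.0194), since EV replicate 1 lay below every BORA tumour and the other EV tumours above them. CD68, a macrophage marker above the negative controls, differed by 0.35 over 8 arrays and 0.38 over 7, with overlap. Of the 10 markers 9 were lower in BORA in each set. Among all clusters below the negative controls, where most of these markers lay, 67.4% were lower in BORA over 8 arrays and 66.4% over 7. The part of leukocyte content in the class I values was not tested. T and natural killer cell markers, of which 1 of 8 was above the negative controls, summed to 8.53 to 8.97 in BORA and 9.04 to 9.29 in EV. That 1 was GZMB, the brightest, with 7.67, 7.21, 7.45 and 7.77 in BORA tumours and 7.95, 7.89, 8.06 and 8.37 in EV tumours. GZMB exceeded the negative control percentile on 2 EV arrays and 0 BORA arrays. Of the 8 markers 3 were higher in BORA and 5 lower, in each set. CD3D, CD3G, CD4 and CD8A reached at most 4.20 on any array, and CD3E lay between 5.28 and 6.65, below the negative controls on all of them.

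The 7 endothelial markers, 1 of them above the negative controls, had sums of 8.96 to 9.57 in BORA tumours and 8.27 to 8.998 in EV tumours, which overlapped in 1 tumour of each group. CDH5, the endothelial cadherin, differed by 2.28 over 8 arrays (limma's adjusted p = 0.129) and 2.09 over 7 (adjusted p = 0.0731). PECAM1 differed by 1.56 (adjusted p = 0.137) and 1.34 (adjusted p = 0.0830). CDH5 exceeded the negative control percentile on 2 BORA arrays, PECAM1 on 3, and both on 0 EV arrays. Their EV values are thus readings near background. CDH5 and PECAM1 carried the sum. The other 5, VWF, KDR, TEK, CLDN5 and EMCN, were lower in BORA in both sets. The median of the 7 was -0.20 over 8 arrays and -0.16 over 7. Fibroblast markers, 3 of 6 above the negative controls, summed to 15.17 to 15.69 in BORA and 14.83 to 15.81 in EV. The ovarian carcinoma markers, 5 of 7 above the negative controls, summed to 16.42 to 16.64 in BORA and 15.86 to 17.25 in EV. Among them PAX8 was higher in BORA without overlap, by 1.10 over 8 arrays (limma's adjusted p = 0.199) and 0.79 over 7 (adjusted p = 0.121). Of the 7, 4 were higher in BORA and 3 lower over 8 arrays, and 2 higher and 5 lower over 7. The part of squamous, endothelial, fibroblast or tumour cell content in the class I values was not tested. Human probes may also read mouse host RNA where the sequences allow.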

How the data were processed

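RNA of 8 xenograft tumours was measured on Affymetrix arrays, and groups and replicate numbers came from the sample descriptions. Per the submitters' processing notes, the authors used Affymetrix Expression Console. Which version they ran, and how background and scale were treated, is not given in the sources used here. By their range the deposited values are on a log2 scale; the labels name no base, and folds hold only on this reading. The array named in the design text (Human Gene 1.0 ST) is not the Affymetrix design to which the row identifiers and supplied annotation belong.

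The 24351 rows held 2903 controls and 3739 clusters unnamed here. The other 17709 clusters, all with 1 symbol, were tested together with limma (lmFit and eBayes, no covariates, no filter, no further normalization), with p-values adjusted by the Benjamini-Hochberg method at a threshold of 0.05, over 8 arrays and over 7 without EV replicate 1. A symbol with several clusters was read from the brightest. A cluster or listed gene counted as above the negative controls where its mean in either group exceeded the group's mean of the arrays' 95th percentiles of 612 negative controls. Batches could not be tested, as the labels carry neither slide nor scan date.

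The class I genes and the 17 lists (172 entries, 161 of 171 distinct genes measured, 6 of the lists markers summed as linear signals) were chosen with earlier results of these data known. Text names all measured class I genes and heavy chains, BORA, 5 genes like their mean, and from each list up to 4 genes with the smallest p in each set of arrays, and besides these PSMB7 and single marker genes, chosen after their values were seen. The alternatives were the replicate block, quantile normalization, median centring, an intensity trend with robust fitting, array weights, 2 filters, all rows, the mean of a gene's clusters, an adjusted p of 0.1 and each array left out. Promoter windows came from RefSeq (GRCh38.p14). The test was tried on simulated data. The software was R 4.3.3 with limma 3.58.1 and statmod 1.5.0.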

Additional observations from a re-analysis of the deposited data

Results flagged for a closer look

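In groups of 4 tumours, 13 of 124 groups over 62 genes held 1 array whose gap to its nearest neighbour, as a share of the group's range, exceeded Dixon's 95% critical value. Chance gives about 1 in 20. None of the 9 measured class I genes was among them. EV replicate 1 was the array in 6 cases. It was low for HLA-G (11.70, gap share 0.874), CALR (16.73, 0.856), UGGT1 (10.59, 0.870), PSME1 (8.22, 0.903) and SUZ12, a Polycomb subunit (9.74, 0.915), and high for RAET1L (11.53, 0.961).

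BORA replicate 3 was high for HLA-G (13.14, 0.922) and TYK2 (10.57, 0.900). EV replicate 2 was high for the class II chains HLA-DRA (5.20, 0.916) and HLA-DPA1 (5.87, 0.854), both below the negative controls. BORA replicate 2 was high for CD1E (6.49, 0.843) and low for HLA-DRA (3.37, 0.883). BORA replicate 4 was low for the autophagy receptor NBR1 (9.66, 0.863).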

How the results depend on the processing

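Under each alternative run, 0 of the 9 class I genes passed at 0.05, with 1 change at another threshold: at an adjusted p of 0.1, 2 passed without EV replicate 1 (HLA-E and PSMB9), and 0 in the deposited values over 8 arrays. All 151 values of the 9 genes under alternatives to the 8-array fit, leaving out arrays included, were positive (0.20 to 1.58), as were all 142 under alternatives to the 7-array fit (0.15 to 1.21, lowest adjusted p 0.0539). With all 8 arrays the lowest adjusted p was 0.0850, of HLA-E under array weights. The same 6 genes did not overlap under the deposited, quantile and median-centred scales, and the median of all 9 was 0.71, 0.60 and 0.66 over 8 arrays. After quantile normalization 51.5% of the clusters above the negative controls were higher in BORA, against 65.3% as deposited, and 48.8% against 62.8% over 7 arrays. Same-numbered tumours had residual correlations of -0.11, 0.04, 0.07 and -0.02, within the range of differently numbered ones (-0.18 to 0.17). These few values cannot show whether same-numbered tumours shared an animal, day or batch. With the replicate block 0 of the 9 passed in either set, the IRF9 adjusted p was 0.158 over 8 arrays, and without EV replicate 1 those of HLA-C, IRF1 and RELA were 0.0280, 0.0219 and 0.0403. Signal over background limits NLRC5, PSMB10, IRF1, TAP1 in EV tumours and the class II genes.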
